A study of Mus musculus with 4 samples.

Results

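The comparison of CCR2-/- and WT mice asks which immune cells and transcripts are found in the injured muscularis when monocytes lack the receptor that leads them there. The CD45+ cells of the small-intestinal muscularis externa were compared at 72 h after intestinal manipulation, a surgical handling of the bowel that injures and inflames its muscle layer. All cells of both 72 h libraries were taken, which gave 2363 of the 5811 cells of the series, 1315 from WT and 1048 from CCR2-/- mice. The WT mice were C57BL/6J and the CCR2-/- mice B6.129S4-Ccr2tm1Ifc/J, which carry the null allele in every cell, and all were 12 weeks old and had been operated. The other pair of libraries, from 24 h, is used here for a few values side by side. Each group was 1 library of cells pooled from several mice, so no difference below has a replicate check, and each interval is a 95% interval that covers counting error only. Age, surgery, tissue and sort were shared by both groups, while strain background, pool of mice and library cannot be told apart from the genotype.

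CCR2 is the receptor by which classical monocytes answer CCL2, CCL7 and CCL12 and leave the bone marrow for inflamed tissue. In the muscularis, monocytes that arrive in this way become Mφs next to those that already lived there, while neutrophils use other receptors, chiefly CXCR2. Mφs present antigen on MHC class II, take up dead cells and lipid, and secrete complement and matrix proteins.

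The WT library held 16600493 UMIs (unique molecular identifiers, each 1 captured transcript) with a median of 12427 per cell, and the CCR2-/- library 9736725 with a median of 4990.5. The libraries shared 1 cell barcode. Ptprc, which encodes CD45, was detected in 96.5% of WT and 91.6% of CCR2-/- cells, and cells with non-immune markers numbered 0 in WT and 6 in CCR2-/-. Levels are given as CPM, UMIs of a gene per 1000000 UMIs of the cells summed, and differences as the log2 ratio of CPM in CCR2-/- to WT, so that 1 is 2-fold higher in CCR2-/-. Genes were compared where the mean of both CPM values was at least 50.

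Ccr2 itself (chromosome 9, 124101950 to 124113557, GRCm38) was read first, since it checks the label. The WT cells together gave 923 CPM (95% interval 908 to 937) and the CCR2-/- cells 53.7 CPM (49.2 to 58.5), a log2 ratio of -4.10 (-4.23 to -3.98). The gene was detected in 68.8% of WT and 13.8% of CCR2-/- cells. It was lower in CCR2-/- cells of every class compared, with 1058 against 90.1 CPM in monocyte/Mφ-like cells, 331 against 24.5 CPM in dendritic cells and 406 against 119 CPM in T cells. The 3' tags count the end of a transcript, and which part of the gene the allele removes is not given in the sources used here, so the 523 UMIs left in the CCR2-/- library do not tell whether a working receptor was made. Genes within 5 Mb of Ccr2, where 129 sequence could remain around the allele, included none that was 2-fold lower among the 12 compared in monocyte/Mφ-like cells, the 13 in neutrophils, the 12 in dendritic cells and the 14 in T cells. Over all genes the shares 2-fold lower in these classes were 2.48%, 0.916%, 2.47% and 1.49%. So few genes near Ccr2 therefore could not show a lower or higher share. In T cells 2 of the 14 were at least 2-fold higher in CCR2-/-, where 1.99% of all genes were, among them Ccr9 (123678439 to 123784330).

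Each cell was placed in the class with the most of its 8 marker genes detected. Monocyte/Mφ-like cells were 836 of 1315 in WT (63.6%, exact binomial interval 60.9 to 66.2%) and 110 of 1048 in CCR2-/- (10.5%, 8.71 to 12.5%), so that CCR2-/- lay at -53.1 points (-56.2 to -49.8) from WT in percent of cells. For neutrophils the order was turned around, with 190 in WT (14.4%, 12.6 to 16.5%) and 566 in CCR2-/- (54.0%, 50.9 to 57.1%), 39.6 points more (35.9 to 43.1). The gate fixed how many of its own markers a class held, with a median of 8 of 8 in monocyte/Mφ-like and 5 of 8 in neutrophil-like cells of both libraries. Outside the gate, 98.3% of WT and 95.6% of CCR2-/- UMIs of the Mφ gene Apoe lay in the former class, and 91.7% and 98.8% of those of the neutrophil gene S100a8 in the latter.

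Lymphoid shares were also larger in CCR2-/-. T cells were 44 in WT (3.35%, 2.44 to 4.47%) and 94 in CCR2-/- (8.97%, 7.31 to 10.9%). NK cells were 14 against 35 (1.06% and 3.34%), with a difference of 2.28 points (1.10 to 3.62), and innate lymphoid cells 13 against 25 (0.989% and 2.39%), with a difference of 1.40 points (0.363 to 2.58). B cells, 15 against 11, differed by -0.0911 points (-0.958 to 0.844), an interval that spans 0.

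Dendritic cells were 43 in WT (3.27%) and 50 in CCR2-/- (4.77%), and the interval of their difference ran from -0.0824 to 3.19 points. Plasmacytoid dendritic cells, the interferon-producing lineage, were 8 in CCR2-/- and 0 of 1315 in WT, where a count of 0 allows up to 3 cells or 0.228% (exact binomial upper bound 0.280%). No eosinophil-like cell was gated in either library, which by the same 3 cells allows up to 0.228% in WT and 0.286% in CCR2-/- (exact bounds 0.280% and 0.351%). A further 115 WT and 76 CCR2-/- cells led with Mφ markers but had 2 to 5 of the 8 (8.75% and 7.25%). These mononuclear phagocytes with few Mφ markers were kept out of the Mφ class and are described apart.

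**Figure D1:**
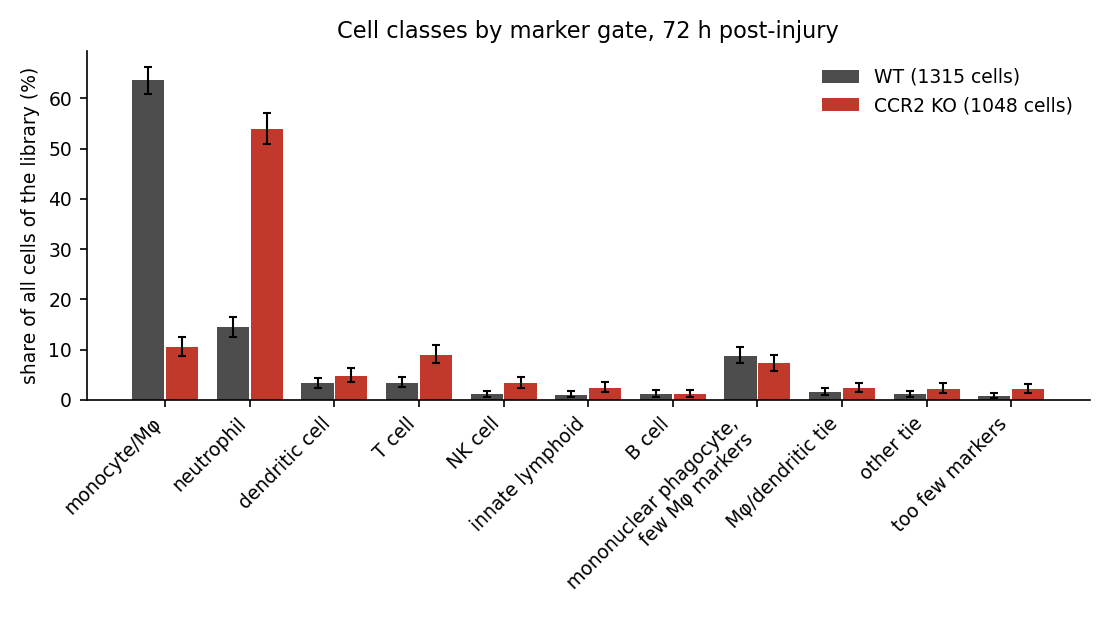
Share of all cells of each 72 h library in each marker-gated class (y axis, percent), with WT in grey, CCR2-/- in red and exact binomial 95% intervals as error bars, which cover counting error only. Monocyte/Mφ-like cells make up 63.6% of WT and 10.5% of CCR2-/- cells, and neutrophil-like cells 14.4% and 54.0%. Classes with fewer than 20 cells in all are left out.

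The shares of 1 library sum to 100%, so a larger share of a class is not a larger number of cells in the tissue, and no count per tissue was given. At 24 h the same gate put 73.4% of WT and 10.4% of CCR2-/- cells in the monocyte/Mφ-like class and 18.2% and 73.4% in the neutrophil-like class, so neutrophils were the largest class in CCR2-/- at both times. Neutrophils are small in RNA content, and at 72 h their median was 2440.5 UMIs in WT and 3444.5 in CCR2-/-, against 14702 and 17279 in monocyte/Mφ-like cells. Of all UMIs, monocyte/Mφ-like cells gave 78.6% in WT and 22.0% in CCR2-/-, and neutrophils 2.96% and 22.6%.

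Over all CD45+ cells, 162 of 3174 genes compared (5.1%) were at least 2-fold higher in CCR2-/- and 170 (5.36%) at least 2-fold lower. In these sums fewer cells of a type and less RNA per cell cannot be told apart. The genes furthest lower were Mφ genes. Apoe, the lipid carrier of Mφs, was at 20195 CPM in WT and 860 CPM in CCR2-/-, a log2 ratio of -4.55 (-4.58 to -4.52). Lyz2, which encodes lysozyme, was at 13654 CPM and 1996 CPM, and C1qb, a chain of the C1q complement complex, at 4151 CPM and 567 CPM. Retnla, a secreted product of alternatively activated Mφs, was at 369 CPM in WT and 1.85 CPM in CCR2-/-. Selenop, Trem2, Ms4a7, Folr2, Trf, Fn1 and Hspa1a completed the 12 lowest with Ccr2, at log2 ratios from -3.51 (Ms4a7) to -2.77 (Fn1).

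The genes furthest higher were mostly neutrophil genes. S100a8 and S100a9, whose products form calprotectin, were at 790 and 1080 CPM in WT and at 10282 and 9851 CPM in CCR2-/-, log2 ratios of 3.70 and 3.19. The granule gene Lcn2, for the iron-binding lipocalin, was at 18.1 CPM against 301 CPM. Retnlg, Wfdc21, Asprv1, Ifitm1 and the stefin genes Stfa2l1 and Gm5483 lay between 3.10 (Ifitm1) and 4.48 (Gm5483). Stefin genes form a family of near-identical copies, so which copy was counted is uncertain. Antibody genes topped the list through few cells, since 11959 of 12249 Iglc1 UMIs and 5132 of 6947 Igha UMIs in CCR2-/- came from 1 cell each. Gm47283 was at 7.41 CPM against 126 CPM. It is annotated at the end of chromosome Y (90784738 to 90816464), where copies elsewhere in the genome are not told apart. Kdm5d, another gene of chromosome Y, had 3 and 2 UMIs.

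Within classes most of these distances were smaller. S100a8 differed by 3.70 over all cells and by 0.87 within neutrophils. Apoe differed by -4.55 over all cells and by -2.76 within monocyte/Mφ-like cells. C1qb went from -2.87 to -1.05 and Selenop from -2.80 to -1.21. Gm47283, at 4.09 over all cells, stayed far apart in both classes. It lay at 3.78 in monocyte/Mφ-like cells and at 4.97 in neutrophils, the latter on 1 WT UMI against 141.

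**Figure D2:**
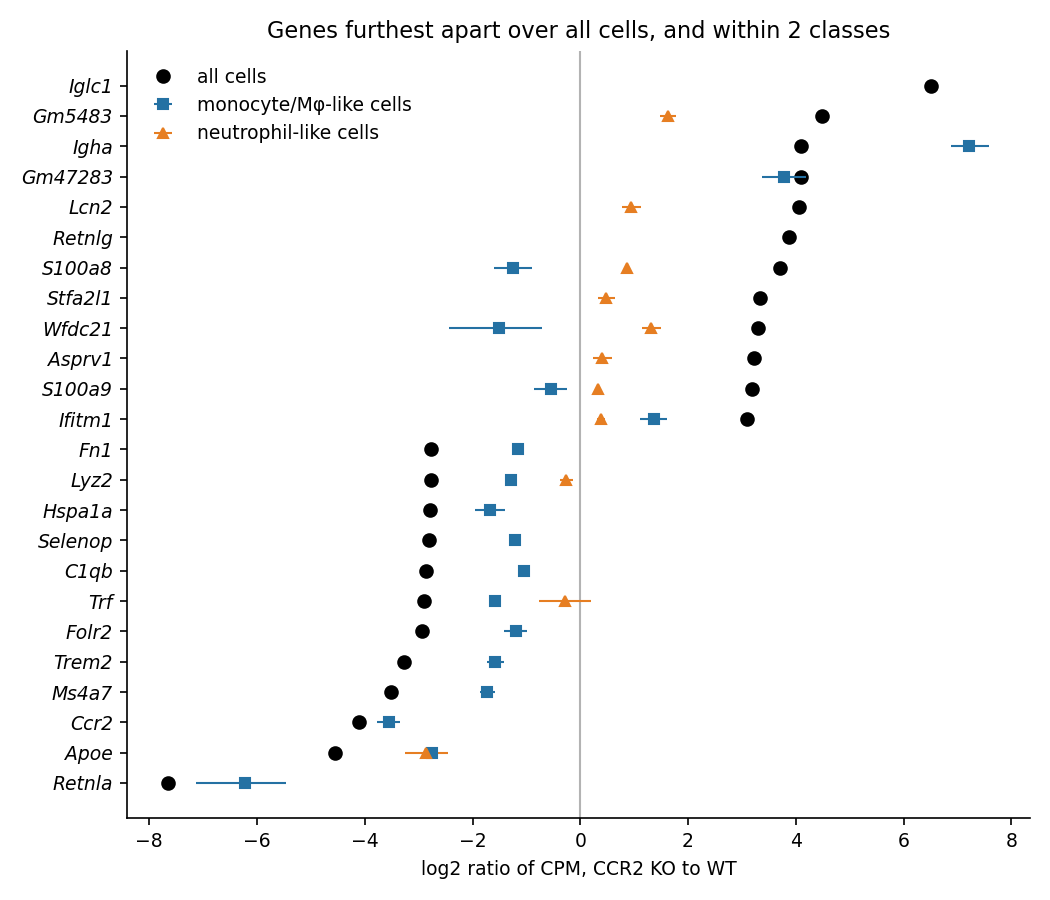
Log2 ratio of CPM in CCR2-/- to WT (x axis) for the 24 genes furthest apart over all cells (black), with the same ratio within monocyte/Mφ-like cells (blue squares) and neutrophil-like cells (orange triangles), with exact 95% counting intervals. Class points are drawn where both libraries held at least 10 UMIs of the gene, and 100 together, and the gene was not a marker of that class. S100a8 sits at 3.70 over all cells and 0.87 within neutrophils, and Apoe at -4.55 and -2.76 within monocyte/Mφ-like cells.

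The source of shared inflammatory transcripts differed between the libraries. Il1b, for interleukin-1β, was at 1365 CPM over all WT cells and 3639 CPM over all CCR2-/- cells. In WT 48.3% of its UMIs came from monocyte/Mφ-like cells and 42.7% from neutrophils, and in CCR2-/- 3.99% and 90.5%. Within either class Il1b was not higher in CCR2-/-, with 839 against 660 CPM in monocyte/Mφ-like cells and 19708 against 14550 CPM in neutrophils, though among Mφs with at most 5% mitochondrial UMIs its ratio was 0.18. Il1rn, which encodes the interleukin-1 receptor antagonist, Tnf and Csf1 were higher over all CCR2-/- cells, at log2 ratios of 2.27, 1.78 and 2.89, and within neutrophils differed by 0.48, 0.21 and 0.23. With each cell weighted equally Tnf lay at -0.08 in neutrophils. Together with Il1b these were 4 of 5 cytokine genes compared that passed 2-fold over all cells.

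Among 3101 genes compared in monocyte/Mφ-like cells, 110 (3.55%) were at least 2-fold higher in the 110 CCR2-/- cells and 77 (2.48%) at least 2-fold lower, with a median log2 ratio over all genes of 0.12. Retnla lay lowest, at 456 CPM in WT and 6.07 CPM in CCR2-/-, where its 13 UMIs came from 1 cell. In WT it was uneven too, with UMIs in 12.4% of cells and 1209 of its 5946 UMIs in 1 cell. Apoe followed with 25239 CPM in WT and 3737 CPM in CCR2-/-, and it was detected in 98.9% and 91.8% of these cells.

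Lipid handling genes did not move as a block. Pltp, for the phospholipid transfer protein, was at 547 CPM in WT and 113 CPM in CCR2-/- (log2 ratio -2.27, -2.47 to -2.09). Cd36, a scavenger receptor for fatty acids and oxidised lipid, stood on the other side at 46.4 CPM against 213 CPM (2.20, 2.02 to 2.38). Of 10 lipid handling genes compared, 2 were at least 2-fold lower, 1 at least 2-fold higher and the median was -0.54. The higher one, Cd36, passed the level filter through the CCR2-/- library alone, so the filter favoured its direction. Thinned to 1000 UMIs per cell, 5.02% of WT and 23.6% of CCR2-/- monocyte/Mφ-like cells had a Cd36 UMI (19.9% and 65.5% unthinned), where neutrophils at the same depth had 0% and 0.185%.

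All 7 MHC class II genes had lower levels in CCR2-/- monocyte/Mφ-like cells, 4 of them by at least 2-fold, with a median of -1.27. H2-Aa, the α chain of the I-A molecule, was at 5994 CPM in WT and 2043 CPM in CCR2-/- (-1.55, -1.60 to -1.51). H2-Ab1, its β chain, was at 5500 CPM against 2225 CPM, H2-Eb1 at 5404 CPM against 1916 CPM and the invariant chain Cd74 at 14962 CPM against 6225 CPM. H2-DMa and H2-DMb1, which load peptide, and Ciita, the transactivator of the family, lay at -0.76, -0.67 and -0.95. At 1000 UMIs per cell H2-Aa was detected in 76.6% of WT and 37.3% of CCR2-/- cells of the class (neutrophils 5.44% and 2.95%).

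In both other classes of antigen-presenting myeloid cells the same genes differed less. In the mononuclear phagocytes with few Mφ markers H2-Aa was at 7016 CPM in WT and 7058 CPM in CCR2-/-, and Cd74 at 17584 and 19654 CPM. In dendritic cells H2-Aa was at 9417 and 7247 CPM, with a median over the 7 genes of -0.20. The size in the Mφ class therefore depended on where the class was bounded: with no higher minimum for Mφ markers H2-Aa lay at -0.72, H2-Ab1 at -0.40, Cd74 at -0.51 and Ciita at 0.10. Among cells with at most 5% mitochondrial UMIs H2-Ab1 and Cd74 fell short of 2-fold, at -0.92 and -0.91. At 24 h the direction was the other way, with H2-Aa at 1559 CPM in WT and 3069 CPM in CCR2-/- monocyte/Mφ-like cells.

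MHC class II promoters share a set of short elements that is read by factors working with Ciita, of which the Y box is the one bound by NF-Y. The 8 letters CTGATTGG, searched on both strands, stand for that box here. They occur in 1346 of 32851 RefSeq mouse promoters of the same length (4.10%, GRCm38.p6). Promoters were at hand for 4 of the 7 genes, and 2 of the 4 hold the letters. Both genes lie on chromosome 17, and their promoters are shown because H2-Aa and H2-Eb1 were the MHC class II genes with the lowest ratios in the Mφ class. H2-Aa is read on the minus strand (chr17:34287807-34287934) and H2-Eb1 on the plus strand (chr17:34305745-34305872), with the Y box letters in capitals.
H2-Aa: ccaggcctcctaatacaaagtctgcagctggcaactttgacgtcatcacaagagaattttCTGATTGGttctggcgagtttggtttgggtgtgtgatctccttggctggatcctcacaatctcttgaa
H2-Eb1: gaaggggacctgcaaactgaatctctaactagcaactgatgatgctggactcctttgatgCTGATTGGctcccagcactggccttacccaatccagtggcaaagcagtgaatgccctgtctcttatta
The letters end 43 bases before the gene start in H2-Aa and 54 bases before it in H2-Eb1. They describe the window and say nothing of binding in these cells.

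Complement genes lay lower too. C1qa was at 4609 CPM in WT and 2869 CPM in CCR2-/-, C1qb at 5161 against 2501 CPM and C1qc at 2648 against 1918 CPM. Of 8 complement genes compared, 7 lay lower and 1, C1qb at -1.05, passed 2-fold. C3ar1, the receptor of the C3a fragment, was at 508 against 310 CPM. The median of the list, -0.57, lay nearer 0 than that of MHC class II, but with no higher minimum for Mφ markers the order was the other way, -1.03 against -0.40. Among cells with at most 5% mitochondrial UMIs C1qa lay at -1.32 and H2-Aa at -1.15.

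Genes that mark the Timp2 and Cd206 Mφ states lay lower on balance, with medians of -1.26 over 3 and -0.71 over 5 genes. Timp2, an inhibitor of metalloproteinases, was at 391 CPM in WT and 163 CPM in CCR2-/-, and its companions Ltc4s, of leukotriene synthesis, and Adgre5, which encodes CD97, lay at -1.93 and -1.02. All 3 passed 2-fold here, but Adgre5 lay between -0.91 and -0.66 with Leiden clusters, at most 5% mitochondrial UMIs, no higher Mφ minimum or equal weight per cell, and Timp2 at -0.94 and -0.92 with the first and the last of these. Of the 5 Cd206 state genes, the lipid receptor Trem2 (487 against 163 CPM) and Selenop (2913 against 1255 CPM) were at least 2-fold lower, and Igf1, a growth factor gene, lay at -0.71. Mrc1, the gene for CD206, lay at 0.30 and the scavenger receptor Stab1 at 0.48, but both had the other sign, -0.28 and -0.57, among cells with at most 5% mitochondrial UMIs (578 WT and 36 CCR2-/- cells), where all 5 lay lower. Of 7 genes of resident Mφs compared, 5 lay higher by less than 2-fold, where 60% of all genes lay higher. Of the rest, 1 was at least 2-fold lower, Folr2 at 215 CPM in WT against 93.4 CPM in CCR2-/-. Of the higher ones, Cx3cr1 at 0.56, Cd81 at 0.63 and Cd72 at 0.45 also changed sign among cells with at most 5% mitochondrial UMIs. There they lay at -0.06, -0.22 and -0.46.

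Matrix genes lay on both sides. Fn1, for fibronectin, was at 1440 CPM in WT and 648 CPM in CCR2-/-, Thbs1, for thrombospondin, at 435 against 180 CPM and Ecm1 at 181 against 70.0 CPM. Vcan, for the proteoglycan versican, was at 42.2 against 112 CPM. Of 7 matrix genes compared, 3 were at least 2-fold lower and 1 at least 2-fold higher. The higher one, Vcan, passed the level filter through the CCR2-/- library alone, so the filter favoured its direction. Among cells with at most 5% mitochondrial UMIs Fn1 lay at -0.04 and Thbs1 at -0.28. Alternative activation genes split in the same way, with Ccl24, an eosinophil chemokine, at 65.7 against 156 CPM, Arg1, for arginase, at 194 against 311 CPM, and the lectin Clec10a at 205 against 79.4 CPM. With no higher minimum for Mφ markers Clec10a went from -1.37 to 0.0012, and Ccl24 and Vcan fell short of 2-fold at 0.71 and 0.93.

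The 4 genes listed as CCR2 ligands differed in direction within monocyte/Mφ-like cells, 2 of them at least 2-fold higher in CCR2-/-. Over all cells Ccl2 was at 498 CPM in WT and 440 CPM in CCR2-/-, Ccl7 at 403 and 312 CPM and Ccl12 at 428 and 136 CPM. Within monocyte/Mφ-like cells Ccl2 was higher in CCR2-/-, at 608 CPM against 1690 CPM (1.47, 1.42 to 1.53), as was Ccl7 at 496 against 1212 CPM (1.29, 1.22 to 1.36, and 0.94 with no higher Mφ minimum). At 1000 UMIs per cell Ccl2 was detected in 29.5% of WT and 47.3% of CCR2-/- cells of the class (neutrophils 1.63% and 2.95%). Ccl12 differed little, 536 against 604 CPM, with a ratio of 0.17 that became -0.03 without the highest cell of each library and -0.28 with no higher Mφ minimum. Ccl8, whose mouse product is best known to bind CCR8, was lower at 980 against 600 CPM. Ccr1, another monocyte chemokine receptor gene, lay at 0.20, while Ccrl2, a non-signalling chemokine receptor gene on the same chromosome as Ccr2 but outside the 5 Mb window (111054486 to 111057519), was at 181 CPM in WT and 27.6 CPM in CCR2-/-.

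Chemokine genes that attract neutrophils were lower in these cells. Ccl3 was at 360 CPM in WT and 156 CPM in CCR2-/-, Ccl4 at 475 against 268 CPM and Cxcl2, a ligand of CXCR2, at 390 against 218 CPM. All 5 of those compared lay lower, 1 of them by at least 2-fold, where 60% of all genes lay higher. Ccl6 and Ccl9 lay nearest 0, at -0.38 and -0.05, and at 0.04 and 0.30 among cells with at most 5% mitochondrial UMIs. Ccl9 also lay at 0.02 with 1 more marker and at 0.16 with equal weight per cell.

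Cell division genes were higher in CCR2-/- monocyte/Mφ-like cells. Pclaf, a partner of the replication clamp, was at 30.2 CPM in WT and 228 CPM in CCR2-/- (2.92, 2.72 to 3.11), Stmn1, a microtubule regulator, at 72.8 against 409 CPM and Top2a, for the topoisomerase of dividing cells, at 37.4 against 180 CPM. All 7 division genes compared were at least 2-fold higher, but 6 of them passed the level filter through the CCR2-/- library alone, so their count was bound to lean that way. Counted per cell, 54 of 836 WT cells (6.46%, 4.89 to 8.34%) and 51 of 110 CCR2-/- cells (46.4%, 36.8 to 56.1%) had at least 4 of the 10 division genes. With each cell thinned to 1000 UMIs and at least 2 genes asked for, the shares were 3.59% (2.43 to 5.08%) and 24.5% (16.8 to 33.7%), where neutrophils had 0 of 184 and 0 of 542.

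The share of cells with at least 4 division genes was 23.3% in WT and 40.0% in CCR2-/- dendritic cells, which differ in depth, and thinned as above 14.0% (5.30 to 27.9%) and 24.0% (13.1 to 38.2%), with intervals that overlap. In T cells the thinned shares were 2.27% and 7.45% and in Mφ/dendritic ties 33.3% and 20.8%, also with overlapping intervals. Mononuclear phagocytes with few Mφ markers had thinned shares of 10.3% (5.24 to 17.7%) and 22.4% (13.1 to 34.2%), whose intervals overlap as well. All 8 division genes compared in them were higher in CCR2-/-, 0 by at least 2-fold, with a median of 0.51 against 0.04 over all genes. By number the monocyte/Mφ-like cells with at least 4 division genes were 54 and 51, against 836 and 110 cells in the whole class. Replication genes outside the list, Rrm1, Mcm5 and Mcm6, were among the 12 furthest higher, at 2.46, 2.44 and 2.29. Igha and Igkc headed the same list through 1 cell, which held 1720 of 1734 and 1261 of 1267 UMIs, and Ccl17 through a cell with 347 of 398, without which its ratio was -0.12.

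Genes that answer tissue dissociation moved with these results. All 9 compared lay lower in CCR2-/- monocyte/Mφ-like cells, 7 by at least 2-fold, with a summed level of 4937 CPM in WT and 2108 CPM in CCR2-/-. Fos, for example, was at 1437 against 587 CPM and Hspa1a, for a heat shock protein, at 177 against 55.6 CPM. The median mitochondrial share of the class was 4.21% in WT and 5.87% in CCR2-/-. The part of either in the differences above was not tested.

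**Figure D3:**
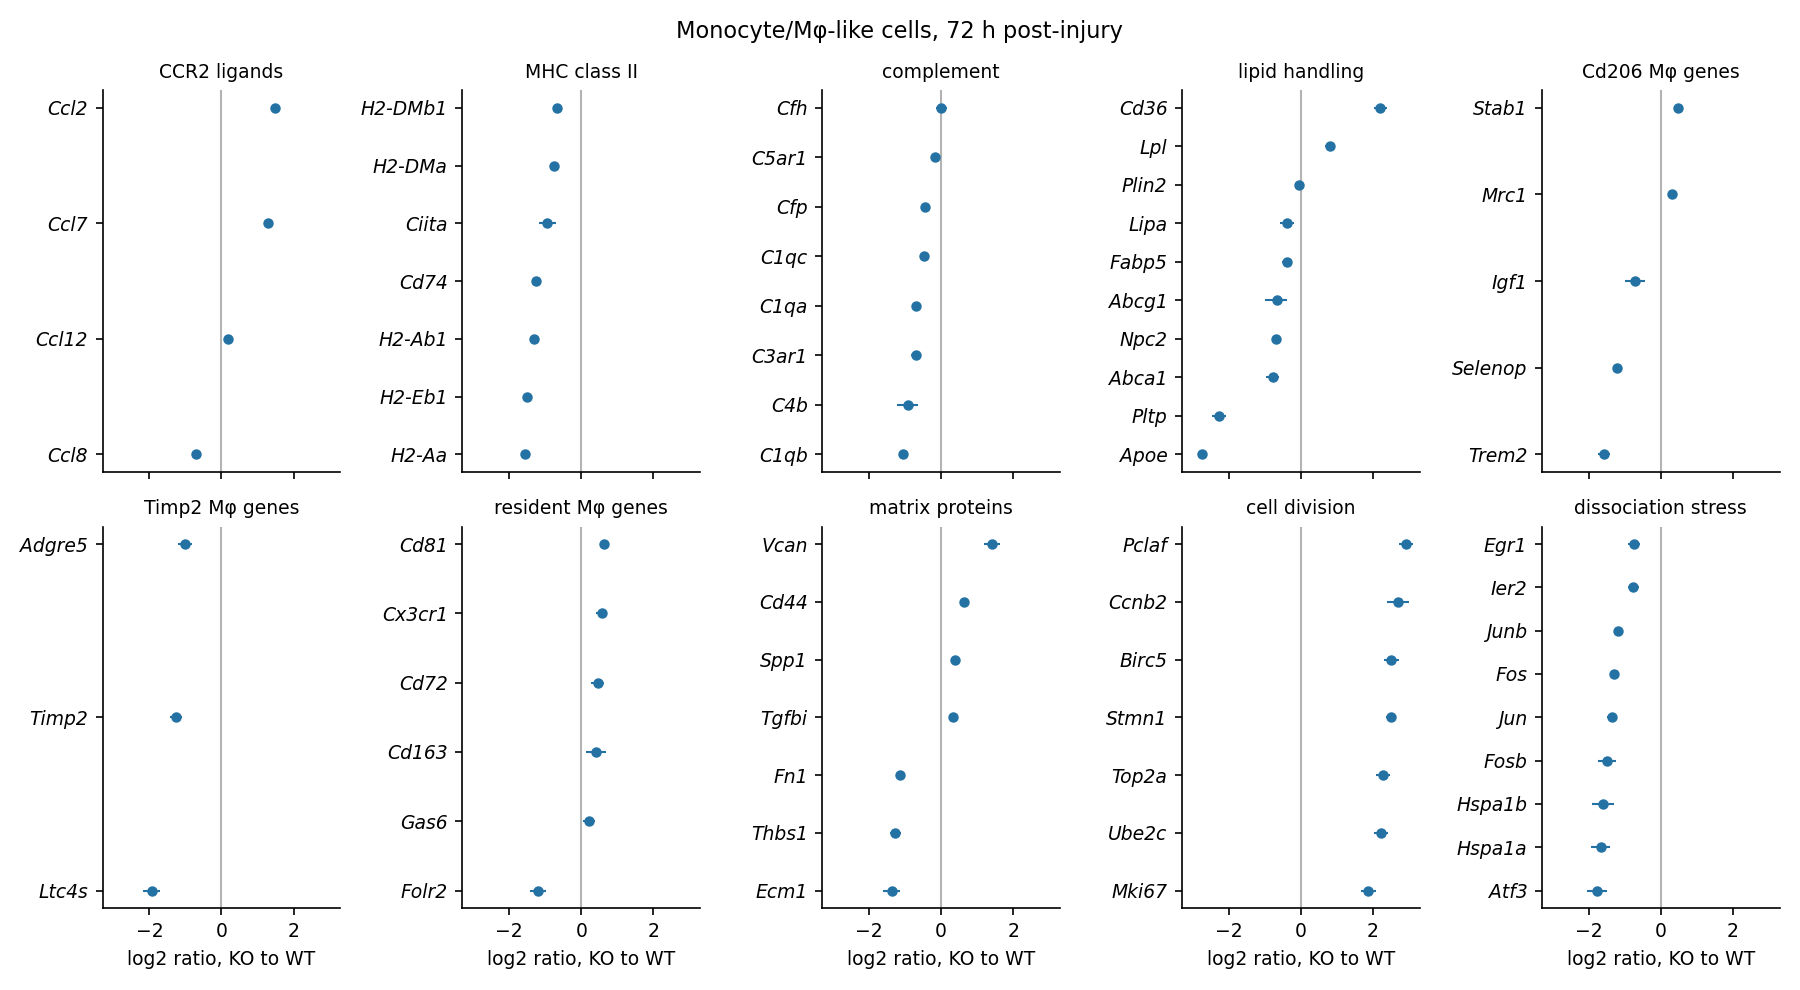
Log2 ratio of CPM in CCR2-/- to WT (x axis) within monocyte/Mφ-like cells for the compared members of 10 gene lists that are reported here, 1 panel per list, with exact 95% counting intervals. Every MHC class II gene lies left of 0, with H2-Aa at -1.55, every cell division gene right of it, with Pclaf at 2.92, and the CCR2 ligand genes range from -0.71 (Ccl8) to 1.47 (Ccl2).

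Few genes passed 2-fold in neutrophils. Of 2946 genes compared, 25 (0.849%) were at least 2-fold higher in CCR2-/- and 27 (0.916%) at least 2-fold lower. Genes of the granule list, which also holds the calprotectin genes S100a8 and S100a9, leaned towards CCR2-/-. S100a8 was at 24494 CPM in WT and 44869 CPM in CCR2-/- (0.87, 0.85 to 0.90), S100a9 at 34452 against 43052 CPM and Lcn2 at 572 against 1103 CPM. Wfdc21, an antimicrobial whey-acidic protein gene, was at 548 against 1367 CPM (1.32, 1.14 to 1.50) and the stefin gene Gm5483 at 766 against 2358 CPM (1.62, 1.47 to 1.78).

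All 5 genes of the granule list compared outside the gate were higher, with S100a8 at the median of 0.87, and 1 passed 2-fold. Of all genes 42.5% were higher, and the median over all genes was -0.06. With each cell weighted equally the list's median was 0.43 and S100a9 lay at -0.002. Retnlg and Ly6g, which belong to the gate and are given as description only, were at 2204 against 4348 CPM and 55.0 against 156 CPM. Of the granule genes too low to compare, Camp, Elane and Mpo had no more than 1 UMI in either library, while Ngp had 2 in WT and 68 in CCR2-/-, Ltf 20 and 105 and Prtn3 16 and 83. The share of cells differed less than the level. At 1000 UMIs per cell S100a8 was detected in 78.8% of WT and 74.5% of CCR2-/- neutrophils, Gm5483 in 17.9% and 21.0% and Lcn2 in 17.4% and 20.1%, with intervals of the difference that span 0, and Wfdc21 in 16.8% and 25.8% (difference 1.97 to 15.1 points). At 2000 UMIs per cell the interval for Wfdc21 spanned 0 (-2.41 to 14.6 points) and that for S100a8 lay below it (-14.4 to -1.71 points).

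Interferon-induced genes also lay higher in CCR2-/- neutrophils. Rsad2, for the antiviral protein viperin, was at 97.8 CPM in WT and 229 CPM in CCR2-/- (1.23, 0.80 to 1.68), and Isg15 at 246 against 364 CPM. Of 6 such genes compared 5 were higher and 2, Rsad2 and Ifit1, passed 2-fold, the latter on 21 WT UMIs. At 1000 UMIs per cell Rsad2 was detected in 3.26% of WT and 7.75% of CCR2-/- neutrophils (difference 0.325 to 7.59 points). At 2000 UMIs per cell that interval spanned 0 (-0.706 to 9.96 points). In monocyte/Mφ-like cells 2 of 3 compared lay higher by less than 2-fold and Irf7, for an interferon regulatory factor, lower at 210 against 97.6 CPM.

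Homing genes were close, while chemokine genes lay on both sides. Cxcr4, the bone marrow retention receptor that aged neutrophils regain, was at 949 CPM in WT and 727 CPM in CCR2-/-. Cxcl2 was at 10830 against 8739 CPM and Ccl3 at 1316 against 1590 CPM. Of 8 homing genes compared 1 passed 2-fold, Itga4, an integrin chain, at 163 against 68.5 CPM. Of 6 neutrophil-attracting chemokine genes compared, 1 was at least 2-fold higher, Cxcl3 at 163 against 373 CPM, and 1 at least 2-fold lower, Ccl9 at 112 against 27.7 CPM. Cxcl3 went from 1.20 to 0.31 with each cell weighted equally, and Ccl9 from -2.02 to -1.15 without the highest cell of each library and to -0.98 with Leiden clusters.

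Among genes lower in CCR2-/- neutrophils, Dusp2, a phosphatase gene, was at 485 CPM in WT and 160 CPM in CCR2-/-, and Vegfa at 130 against 58.5 CPM. Mφ genes stood lowest, with Apoe at 289 against 39.9 CPM and C1qb at 151 against 8.62 CPM, but 64 of 74 WT C1qb UMIs lay in 1 cell. The MHC class II genes rested on that kind of cell too, since Cd74 went from -1.54 to -0.64 and H2-Aa from -2.04 to -0.62 without the highest cell of each library. Apoe kept -2.63. Its level in the whole library, 20195 against 860 CPM, moved in the same direction, and the part of free RNA was not tested.

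Siglecf, a sialic acid-binding receptor best known from eosinophils, was detected in 82 of 190 WT neutrophils (43.2%, 36.0 to 50.5%) and 281 of 566 CCR2-/- neutrophils (49.6%, 45.5 to 53.8%). Thinned to 1000 UMIs these shares were 28.8% and 27.5%, against 0.12% and 0.909% in monocyte/Mφ-like cells. As a share of all cells the neutrophils with a Siglecf UMI were 6.24% in WT and 26.8% in CCR2-/-. Of the eosinophil genes, Il5ra, Prg2, Ear1 and Alox15 had 0 UMIs in all neutrophils, and Ccr3 had 1 UMI in WT and 4 in CCR2-/-, Ear2 0 and 3 and Ear6 0 and 1. Siglece, another sialic acid-binding receptor gene of that list, was at 322 and 370 CPM, with like levels in cells with and without Siglecf.

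Neutrophils with a Siglecf UMI had lower levels of S100a8, S100a9, Lcn2, Wfdc21 and Mmp8 than those without in both libraries, at like median depths (2456 and 2416 UMIs in WT, 3301 and 3573 in CCR2-/-). The granule genes Mmp9, which belongs to the gate, and Ltf lay the other way in both, with Ltf on few UMIs (10 with and 10 without in WT, 72 and 33 in CCR2-/-). Slpi, for a protease inhibitor, was at 668 CPM with and 3326 CPM without in WT, and at 603 and 2756 CPM in CCR2-/-. The distance of CCR2-/- from WT was larger among cells without Siglecf for S100a8 and Gm5483. There S100a8 was at 32270 CPM in WT and 67790 CPM in CCR2-/- and Gm5483 at 1000 and 3866 CPM. Among cells with Siglecf S100a8 was at 13374 and 17944 CPM and Gm5483 at 431 and 587 CPM, while Wfdc21 differed alike in both, at 148 and 422 CPM with and 827 and 2172 CPM without. The difference between these differences was not tested. Ltc4s was higher in cells with Siglecf, at 156 CPM without and 243 CPM with in WT, and 43.7 and 249 CPM in CCR2-/-.

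**Figure D4:**
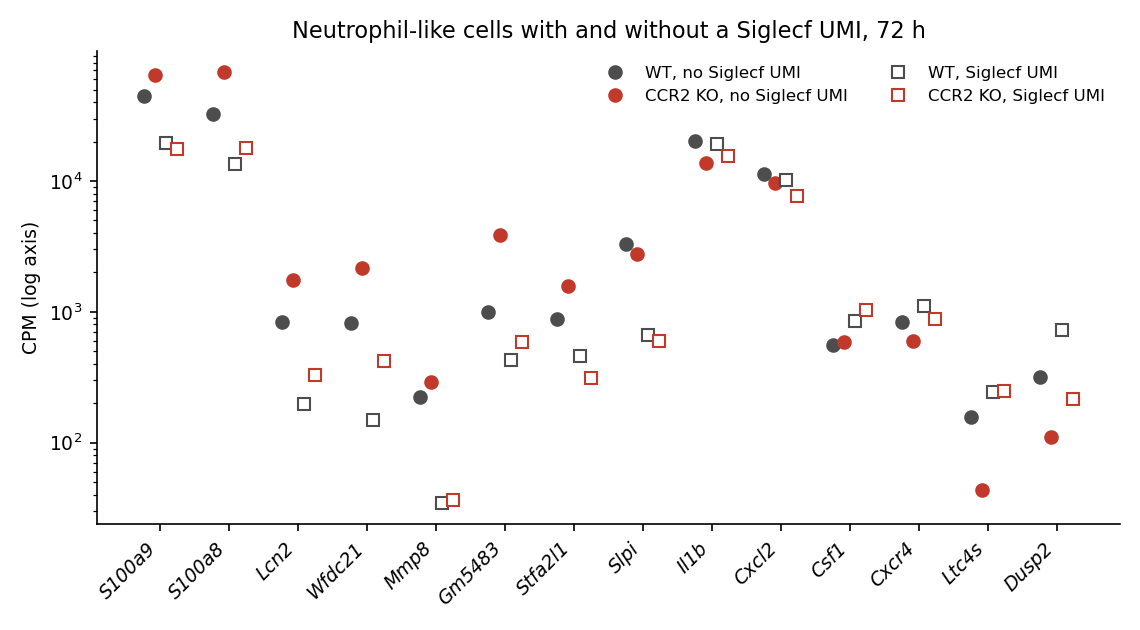
CPM (y axis, log scale) of 14 genes in neutrophil-like cells without a Siglecf UMI (filled circles) and with one (open squares), WT in grey and CCR2-/- in red. S100a8 and Slpi (3326 CPM without and 668 CPM with in WT) sit higher in cells without Siglecf in both libraries.

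In dendritic cells type 1 genes lay higher and type 2 genes lower in CCR2-/-. Of 2914 genes compared, 26 (0.892%) were at least 2-fold higher in the 50 CCR2-/- cells and 72 (2.47%) at least 2-fold lower than in the 43 WT cells. Type 1 dendritic cell genes, of the lineage that presents to CD8 T cells, were all higher by less than 2-fold, 5 of 5 compared outside the gate, with a median of 0.46, where 45.5% of all genes were higher. Irf8, their transcription factor, was at 1358 CPM in WT and 2039 CPM in CCR2-/-, and Itgae, which encodes CD103, at 354 against 578 CPM.

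Type 2 genes were lower, 4 of 4 compared by at least 2-fold, 3 of which passed the level filter through WT alone. The lectin Clec10a was at 292 CPM in WT and 35.0 CPM in CCR2-/-, its relative Mgl2 at 399 against 89.6 CPM, the inhibitory receptor Sirpa at 86.2 against 30.7 CPM and Itgam at 109 against 30.1 CPM. Il1b was at 631 against 131 CPM. The dendritic cells of WT were shallower, with a median of 19333 UMIs against 30526.5, and at 1000 UMIs per cell Clec10a was detected in 32.6% and 4.0% and Irf8 in 39.5% and 66.0%. With Leiden clusters the type 2 median went from -2.01 to -0.83. Dissociation genes moved with these results too, 4 of 7 compared at least 2-fold lower with a median of -1.50 and a summed level of 2385 CPM in WT and 1207 CPM in CCR2-/-, and their part was not tested.

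The gate itself bears on this, because type 2 cells share genes with Mφs. Over dendritic cells, Mφ/dendritic ties and mononuclear phagocytes with few Mφ markers together (179 WT and 150 CCR2-/- cells), type 1 genes led in 28 WT cells (15.6%) and 42 CCR2-/- cells (28.0%), a difference of 12.4 points (3.44 to 21.3). Type 2 genes led in 101 (56.4%) and 64 (42.7%), a difference of -13.8 points (-24.2 to -2.91). Phagocytes with few Mφ markers were 115 of the 179 WT and 76 of the 150 CCR2-/- cells, and the part of this mix in both differences was not tested. Cells led by mature genes were 8 in each. In the class with few Mφ markers Clec10a was at 430 CPM in WT and 515 CPM in CCR2-/- and Mgl2 at 1020 and 981 CPM. Of 6 type 2 genes compared there 0 were 2-fold lower, with a median of -0.28.

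Mφ transcripts were lower in that class too, where 117 of 3176 genes (3.68%) were at least 2-fold lower in CCR2-/- and 68 (2.14%) at least 2-fold higher. Apoe was at 2091 CPM in WT and 65.3 CPM in CCR2-/-, Fn1 at 2271 against 206 CPM and C1qb at 820 against 74.0 CPM. Of 7 complement genes 4 were at least 2-fold lower.

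**Figure D5:**
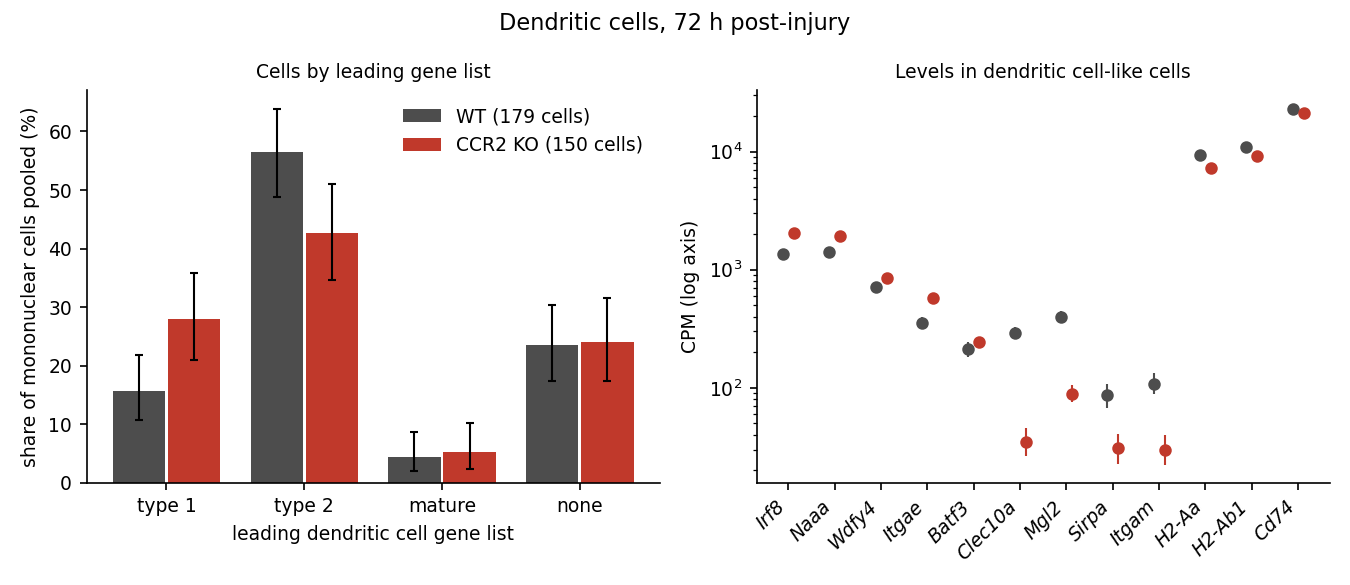
Left, share of 179 WT (grey) and 150 CCR2-/- (red) dendritic cells, ties and mononuclear phagocytes with few Mφ markers whose leading dendritic cell gene list is the one named (y axis, percent, exact binomial 95% intervals). Right, CPM with exact Poisson 95% intervals (y axis, log scale) in dendritic cell-like cells, where type 1 genes such as Irf8 are higher in CCR2-/- (1358 and 2039 CPM), type 2 genes such as Clec10a lower (292 and 35.0 CPM) and H2-Aa close (9417 and 7247 CPM).

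T cells showed 64 of 3212 genes (1.99%) at least 2-fold higher in the 94 CCR2-/- cells and 48 (1.49%) at least 2-fold lower than in the 44 WT cells. Tnfrsf4, for the costimulatory receptor OX40, was at 210 CPM in WT and 639 CPM in CCR2-/- (1.60, 1.21 to 2.02), and Ccr9, the receptor that homes lymphocytes to the small intestine, at 88.6 against 282 CPM (1.67, 1.06 to 2.34). Ctla4 was at 229 against 414 CPM. Detection did not separate the libraries at 1000 UMIs per cell, with Tnfrsf4 in 11.4% and 19.1% (difference -6.49 to 18.9 points). Ccr9 was in 6.82% and 11.7% (-7.59 to 14.1 points), and at 2000 UMIs in 4.55% and 17.0% (0.172 to 21.9 points). Ccr9 lies within 5 Mb of Ccr2, and the part of sequence around the allele in its difference was not tested.

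Cytotoxic effector genes lay on both sides, 2 of 4 compared at least 2-fold lower and 1 at least 2-fold higher. Gzmb, for granzyme B, was the higher one, at 96.0 CPM in WT and 251 CPM in CCR2-/- (1.38, 0.79 to 2.03, and 0.82 with each cell weighted equally). Nkg7, a cytotoxic granule protein gene, was at 753 CPM in WT and 365 CPM in CCR2-/- (-1.05, -1.30 to -0.79), detected at 1000 UMIs in 40.9% and 23.4% of cells. At 2000 UMIs the interval of that difference spanned 0 (-31.4 to 2.36 points), and the ratio was -0.75 with each cell weighted equally. Outside the list, the tissue residence receptor Cxcr6 was at 868 against 466 CPM, Cxcr3 at 391 against 233 CPM and Pdcd1, for PD-1, at 137 against 57.0 CPM. Cxcr6 too lies within 5 Mb of Ccr2, and at 1000 UMIs it was detected in 36.4% and 34.0% (difference -19.5 to 13.8 points). Ccl5 was at 2685 against 1333 CPM, but its ratio went from -1.01 to -0.10 without the highest cell of each library.

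Foxp3, of regulatory T cells, was at 140 against 160 CPM, Cd8a at 66.5 against 52.6 CPM and Gata3 at 181 against 201 CPM, each with an interval of the ratio that spans 0. Of 14 T cell subset genes compared 1, the interleukin-2 receptor gene Il2ra at 88.6 against 180 CPM, was at least 2-fold higher and 0 were 2-fold lower. With each cell weighted equally Il2ra lay at 0.63. MHC class II genes headed the T cell list through 1 CCR2-/- cell, which held 683 of 786 Cd74 UMIs and 254 of 264 H2-Aa UMIs, so these values were not read as a difference of T cells.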

How the data were processed

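Cells were profiled with the 10x 3' v3 kit. Per the labels, the authors used Cell Ranger 3.0.2 for alignment to GRCm38/mm10 and UMI counting, and Seurat. The deposited values are whole-number UMI counts per gene and cell, 16308 genes, with cells under 200 genes or over 10% mitochondrial counts removed by the authors. Of the genes, 16133 matched GENCODE vM21 by symbol.

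The members and the gene lists were chosen with earlier results of these data known. Cells were gated on 8 markers per class, with at least 2 detected, and 6 for the monocyte/Mφ class, a minimum set after the numbers of cells were seen. Ties stayed apart, and genes that gate a class were left out of its list counts. UMIs were summed per class and library for classes of at least 30 cells. CPM has exact Poisson intervals, ratios exact conditional binomial ones, shares Clopper-Pearson ones and differences of shares Newcombe ones, all at 95%. With 1 library a group there was no test. Scrublet marked 1 cell in each library (0.0760% and 0.0954%), so doublets were in effect not removed.

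Named genes were the 12 highest and 12 lowest by the interval bound nearest 0, with at least 100 CPM in 1 library and UMIs in at least 5% of its cells, plus Ccr2, members of counted lists and class markers, and fewer in classes under 100 cells. Other genes with values were named after their values were seen. For shares of cells, each cell was thinned to 1000 UMIs, and 6 WT and 24 CCR2-/- neutrophils below that were left out. Alternatives were another marker minimum, Leiden clusters (scanpy 1.11.5, leidenalg 0.10.2), other filters on cells and levels, median-of-ratios scaling, equal weight per cell, a pseudocount of 5 CPM and thinning to 2000 UMIs. The script was tested on simulated counts. Promoters are from RefSeq (GRCm38.p6). Some genes are not reported here.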

Additional observations from a re-analysis of the deposited data

Results flagged for a closer look

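In monocyte/Mφ-like cells the median log2 ratio of the MHC class II genes was -1.27 at 72 h and 1.06 at 24 h, so the groups differed in opposite directions at the 2 times. H2-Aa was at 1559 CPM in WT and 3069 CPM in CCR2-/- at 24 h and at 5994 and 2043 CPM at 72 h. The neutrophil-attracting chemokines of the same cells had a median of -0.83 at 72 h and 0.71 at 24 h, with Ccl3 at 696 CPM in WT and 1516 CPM in CCR2-/- at 24 h and at 360 and 156 CPM at 72 h. The granule list of neutrophils had a median of 0.87 at 72 h and -1.75 at 24 h. Within it Lcn2 was at 12551 CPM in WT and 1222 CPM in CCR2-/- at 24 h. At 72 h Lcn2 was at 572 and 1103 CPM. With 1 library for each group and time, none of these differences between times was tested, and time and library cannot be told apart.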

How the results depend on the processing

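Of 2744 comparisons of 346 results with an alternative, 2237 stayed within the counting interval of the value (list medians within 0.5, counts of genes within 1.5 times), 474 moved beyond it and 33 reversed, counting only values whose interval left out 0 and medians at least 0.5 from it. The difference in the monocyte/Mφ-like share was -49.1 points with 1 more marker asked for and -58.6 points with cells of at most 5% mitochondrial UMIs, where the neutrophil difference was 50.2 and the T cell difference 2.33 points. Without a minimum level the genes at least 2-fold higher and lower numbered 3018 and 985 over all cells and 2361 and 630 in monocyte/Mφ-like cells, where more genes of few UMIs enter. With at most 5% mitochondrial UMIs, the latter class had 167 genes higher. Ccr2 lay at -4.56 over all cells with equal weight per cell, and in monocyte/Mφ-like cells at -3.77 with Leiden clusters and -2.68 with at most 5% mitochondrial UMIs. The cause of these shifts was not tested.

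Reversed values were as follows. Over all cells the type 1 dendritic cell list had a median of -0.13 with equal weight per cell, which also gave Ccl12 at -0.11 in monocyte/Mφ-like cells and S100a9 at -0.0020 and Tnf at -0.084 in neutrophils. In monocyte/Mφ-like cells with at most 5% mitochondrial UMIs, Mrc1 lay at -0.28, Stab1 at -0.57, Cx3cr1 at -0.062, Cd81 at -0.22, Cd72 at -0.46 and Il1b at 0.18. With no higher Mφ minimum, Mrc1 lay at -0.12, Ccl12 at -0.28, Ciita at 0.10 and Clec10a at 0.0012. With 1 more marker, Ccl17 lay at -0.16 in monocyte/Mφ-like cells and Ccl22 at 0.44 in dendritic cells. With Leiden clusters, Ccl17 lay at -2.60 and Saa3 at 1.81 in the former and Ccl5 at -0.76 in the latter. T cells from these clusters had Cd74 at -4.98, H2-Eb1 at -7.04, H2-Ab1 at -7.01, H2-Aa at -7.77, Fcer1g at -5.27, Cst3 at -1.58 and Ramp1 at 0.46, with medians of -6.56 for MHC class II and -0.14 for the chemokine receptors. Without the highest cell of each library, Ccl17 lay at -0.12 and Ccl12 at -0.030 in monocyte/Mφ-like cells, Ccl5 at -0.48 in dendritic cells, and H2-Ab1 at -0.14 and H2-Aa at -1.17 in T cells.

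The alternatives with no higher Mφ minimum, non-immune cells removed and the highest cell removed were chosen after seeing the data. No paired analysis was possible because each group is 1 library and the labels pair no mice. Depth limits the classes of few cells, and 110 CCR2-/- monocyte/Mφ-like cells bear every Mφ ratio.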
